A study of Mus musculus with 6 samples.

Results

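The NR4A genes Nr4a1, Nr4a2 and Nr4a3 encode a small family of orphan nuclear receptors, also known as Nur77, Nurr1 and NOR-1. They were taken by symbol from the array annotation, which held 3 such genes among the 19938 genes with a transcript cluster of their own. A gene with several clusters is represented by the one chosen by the highest mean signal over all 6 arrays. Each of the 3 genes had 1 cluster, so this choice did not arise for them, and all 3 passed the filter on dim genes. The family was taken up with the group differences of these data known. The RNA of each heart was put on 1 Affymetrix array, and the animals were C57BL/6J pups aged 14 days after birth. Of these hearts 3 came from mice treated for 1 week with ETX (replicates 6, 7 and 10) and 3 from mice given the vehicle, phosphate-buffered saline, PBS (replicates 3, 9 and 12). The labels do not spell out ETX, and they give neither its dose nor the sex of the animals. Cardiomyocyte markers (Myh6, Tnnt2, Tnni3 and others) were bright in every heart, with a mean over 8 genes between 12.26 and 12.40 on the log2 scale. Means are given ± SD, with n = 3 hearts in each group, and differences are ETX minus PBS on the log2 scale. In whole-heart RNA fewer cells of a type and less RNA per cell cannot be told apart.

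NR4A receptors have a ligand pocket filled by bulky side chains, and their activity is therefore set mainly by how much of them is made. Their genes are immediate early genes: cyclic AMP, calcium and growth signals switch them on within minutes, through CREB, MEF2 and serum response factor, and the transcripts are short-lived. Nr4a1 and Nr4a2 bind DNA alone, as pairs, or together with retinoid X receptors, whereas Nr4a3 does not pair with retinoid X receptors. In heart and skeletal muscle they are induced by adrenergic stimulation and exercise and are known for effects on glucose and lipid metabolism.

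The windows before the transcript starts are shown because CREB, the main link from cyclic AMP to these genes, can bind near transcript starts. A further reason was that the 3 genes were all lower in the ETX hearts. CREB binding was not measured. Sequences are those of RefSeq on the mouse build GRCm38.p6, the 250 bases before the start listed for each gene, written 5′ to 3′ along the gene, and other starts of these genes were not examined. Capitals mark matches to TGACG or, on the opposite strand, its complement CGTCA, the core of the cAMP response element that CREB binds.
Nr4a1, chr15:101266596-101266845, + strand: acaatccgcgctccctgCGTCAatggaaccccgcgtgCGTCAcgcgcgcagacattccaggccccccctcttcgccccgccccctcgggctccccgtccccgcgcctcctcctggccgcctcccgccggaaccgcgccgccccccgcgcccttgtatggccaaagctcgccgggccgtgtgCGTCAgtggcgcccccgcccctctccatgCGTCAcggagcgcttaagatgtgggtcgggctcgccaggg
Nr4a2, chr2:57124004-57124253, - strand: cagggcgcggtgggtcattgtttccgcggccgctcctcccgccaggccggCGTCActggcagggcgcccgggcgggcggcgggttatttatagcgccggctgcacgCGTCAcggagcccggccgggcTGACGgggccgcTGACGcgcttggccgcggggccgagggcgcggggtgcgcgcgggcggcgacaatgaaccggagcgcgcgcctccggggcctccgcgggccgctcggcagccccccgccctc
Nr4a3, chr4:48045055-48045304, + strand: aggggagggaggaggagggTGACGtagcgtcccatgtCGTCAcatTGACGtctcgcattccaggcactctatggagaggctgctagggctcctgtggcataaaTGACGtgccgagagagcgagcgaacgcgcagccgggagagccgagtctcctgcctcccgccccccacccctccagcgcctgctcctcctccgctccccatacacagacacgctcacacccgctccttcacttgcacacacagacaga
Each of the 3 windows held 4 matches to TGACG. Among all 32851 windows of this length in the table, 5836 (17.8%) held a match on either strand and 45 (0.137%) held 4 or more. All are rich in G and C (74.4% for Nr4a1, 80.0% for Nr4a2 and 63.6% for Nr4a3, against a median of 52.4%), and of the 6582 windows with at least the share of Nr4a3, 0.38% held 4 or more matches. In Nr4a1 the 4 matches lay on the opposite strand, at bases 233 to 229, 213 to 209, 69 to 65 and 40 to 36 before the start, and all were of the longer form TGACGCA. This form was looked for after the Nr4a1 sequence had been read. It occurred in 1.75% of the windows, and Nr4a1 had the 1 window among 32851 with 4 copies. In Nr4a2 the matches lay between bases 200 and 107, with 2 on each strand, and in Nr4a3 between bases 231 and 143, with 3 on the sense strand. The full palindrome TGACGTCA, present in 1.55% of the windows, and AAAGGTCA, the element that NR4A monomers bind, present in 1.34%, had 0 matches in the 3 windows. A match is a description of letters, not of a bound site.

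**Figure D1:**
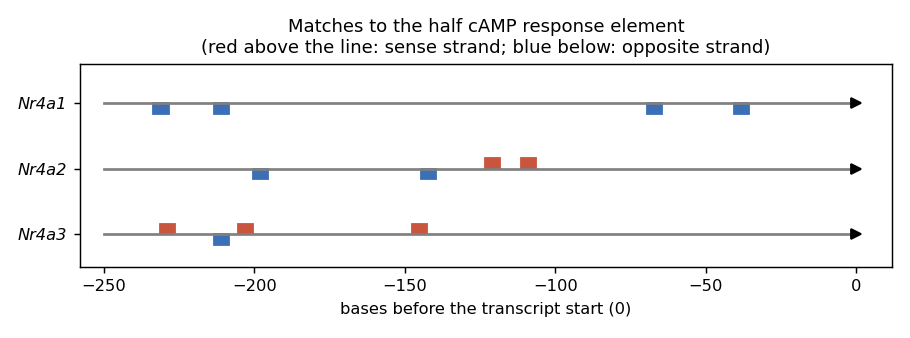
Positions of the matches to the core of the cAMP response element in the 250 bases before the transcript start of each NR4A gene. The horizontal axis gives bases before the start, boxes above a line are on the sense strand and boxes below it on the opposite strand. Each gene has 4 matches, and those of Nr4a1 are all on the opposite strand.

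Other tested genes with such windows were set beside them, among the 9537 with 1 listed promoter, the NR4A genes left out. Of the 26 genes with 4 or more TGACG matches, 0 were called by limma in either direction at an adjusted p of 0.05 (3 lower and 2 higher at an unadjusted p under 0.05), and their median log2 difference between ETX and PBS was -0.033. With 0 matches 2.55% of 7131 genes were called lower and 1.11% higher. With 1 match these shares were 1.44% and 0.888% of 1802 genes, and with 2 matches 1.22% and 1.84% of 490. Of the 88 genes with 3 matches 0 were called by limma (8 lower and 3 higher at an unadjusted p under 0.05). Genes with AAAGGTCA were called lower in 2.25% of 89 cases, against 2.24% of all 9537.

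Nr4a1 was the NR4A gene with the largest difference. Its log2 signal was 8.22, 8.30 and 8.92 in PBS replicates 3, 9 and 12, and 6.23, 6.32 and 7.54 in ETX replicates 6, 7 and 10. The groups did not overlap, with a gap of 0.69 between the highest ETX and the lowest PBS heart. The ETX hearts were uneven: replicates 6 and 7 lay 2.25 and 2.16 below the PBS mean, and replicate 10 lay 0.94 below it. The mean fell from 8.48 ± 0.38 to 6.70 ± 0.73, a log2 difference of -1.78 (95% interval -2.56 to -1.0) or 3.44-fold (limma adjusted p = 0.0348 over 14953 genes). Only 19 tested genes had a lower difference. In that comparison 3.56% of the genes tested were called at an adjusted p of 0.05, 2.43% lower and 1.14% higher in ETX. Of the 3 NR4A genes 2 were called, Nr4a1 and Nr4a3, both lower.

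Nr4a3 stood at 4.98, 5.04 and 5.55 in PBS replicates 3, 9 and 12 and at 4.23, 4.17 and 4.66 in ETX replicates 6, 7 and 10. Again no ETX heart reached the lowest PBS heart, and again PBS replicate 12 was the highest of its group and ETX replicate 10 of its own. The mean fell from 5.19 ± 0.32 to 4.35 ± 0.27, a log2 difference of -0.84 (95% interval -1.24 to -0.43) or 1.79-fold (limma adjusted p = 0.0464). A lower difference was found for 91 tested genes.

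Nr4a2 was at 5.74, 5.71 and 6.08 in PBS replicates 3, 9 and 12 and at 5.63, 5.60 and 5.55 in ETX replicates 6, 7 and 10. The groups did not overlap, but the gap was 0.083, less than the range of 0.37 among the PBS hearts, and the ETX hearts spanned 0.082. Its means were 5.84 ± 0.21 in PBS and 5.59 ± 0.04 in ETX, with a log2 difference of -0.25 (95% interval -0.49 to -0.01). This did not pass (limma adjusted p = 0.212). Values without overlap and lower in ETX were found in 16.1% of all genes tested, and so in all 3 NR4A genes. Without PBS replicate 12 the difference of Nr4a2 was -0.13.

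**Figure D2:**
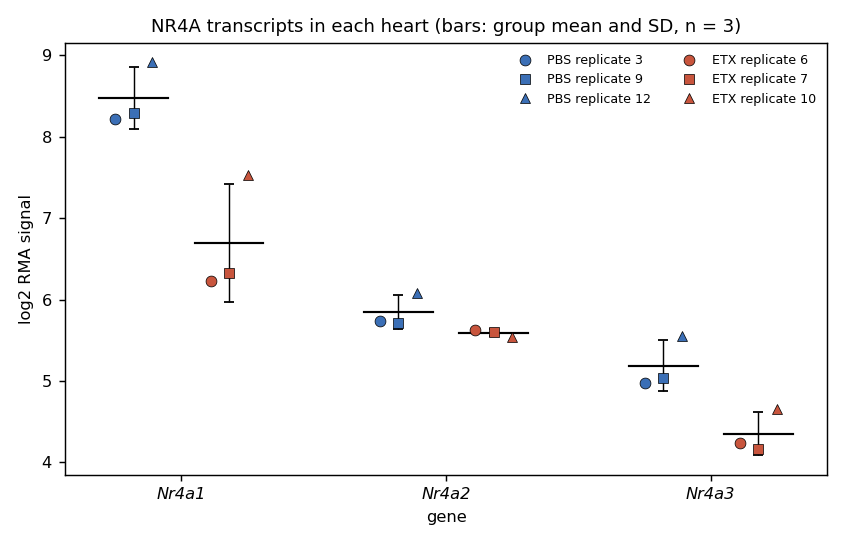
Log2 signal of Nr4a1, Nr4a2 and Nr4a3 in each of the 6 hearts, with PBS in blue and ETX in red. Points are hearts, and bars give the group mean and SD (n = 3). The ETX hearts lie below the PBS hearts for each gene, and ETX replicate 10 is the highest ETX heart for Nr4a1 (7.54) and Nr4a3 (4.66) but the lowest for Nr4a2 (5.55).

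Both calls lay close to the threshold. Nr4a1 passed without ETX replicate 10 (limma adjusted p = 0.02, difference -2.20). It did not pass without PBS replicate 3 (0.0811), PBS replicate 9 (0.0602), PBS replicate 12 (0.0836), ETX replicate 6 (0.101) or ETX replicate 7 (0.124). Nr4a3 passed in 0 of the 6 fits that leave out 1 heart, with limma adjusted p of 0.0792, 0.0672 and 0.0801 without PBS replicates 3, 9 and 12 and 0.128, 0.153 and 0.0534 without ETX replicates 6, 7 and 10. The direction was the same in each of these fits. The differences ran from -2.20 to -1.55 for Nr4a1, from -0.99 to -0.65 for Nr4a3 and from -0.32 to -0.13 for Nr4a2.

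The 3 members were then set against each other within each heart, which subtracts the level of each cluster and compares changes. It does not remove the compression of dim signals by RMA. Nr4a1 was the brightest (mean 7.59, percentile 87.13 of gene means), ahead of Nr4a2 (5.72, 59.92) and Nr4a3 (4.77, 46.08). The part of brightness in the differences below was not tested. The change of Nr4a1 minus that of Nr4a2 was -1.53 on the log2 scale (95% interval -2.80 to -0.27 from a linear model over the 6 hearts). Against Nr4a3 it was -0.95 (-1.71 to -0.19), and the change of Nr4a3 minus that of Nr4a2 was -0.59 (-1.11 to -0.06). In each of these 3 pairs the ETX and PBS hearts did not overlap, and the exact two-sided permutation test gave p = 0.1, the smallest value that 3 against 3 hearts allow, and 0.1 after adjustment over the 3 pairs. The intervals of the linear model, which assumes normal errors of equal spread in both groups, exclude 0 for all 3 pairs. In each pair the ETX hearts were more spread than the PBS hearts. Whether 0 stays excluded without equal spread was not tested, and the exact test cannot go below 0.1 with these hearts. Heart by heart, the log2 signal of Nr4a1 minus that of Nr4a2 stood at -2.03, -1.92 and -0.65 relative to its PBS mean in ETX replicates 6, 7 and 10, while the PBS hearts lay between -0.15 and 0.20. Among the ETX hearts replicate 10 lay nearest to the PBS mean.

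The wider nuclear receptor family gives the setting of this change. Outside NR4A, 46 mouse nuclear receptor genes were listed, of which 36 were tested, 6 lay under the filter on dim genes and 4 were not matched to a cluster of their own. Among the 36, 1 rose, 1 fell and 34 did not pass (5.56% called, against 3.56% of all genes tested). Their median log2 difference was -0.063, against -0.0063 over all genes tested. Thyroid hormone receptor Thrb fell from 5.83 ± 0.05 to 5.39 ± 0.08 (log2 difference -0.44, limma adjusted p = 0.0251). The oestrogen-related receptor Esrrb rose from 4.90 ± 0.06 to 5.37 ± 0.08 (0.46, limma adjusted p = 0.021). Nr4a1 and Nr4a3 had the lowest differences of the 39 tested nuclear receptor genes and Nr4a2 the fourth lowest, after Thrb. The glucocorticoid receptor Nr3c1 was at 7.97 to 8.07 in the PBS and 7.78 to 7.85 in the ETX hearts (-0.21, limma adjusted p = 0.118). Ppard, a receptor for fatty acids, differed by -0.16 (limma adjusted p = 0.166). The call of Thrb was lost when PBS replicate 3 or 12 or ETX replicate 7 or 10 was left out (limma adjusted p reaching 0.0972). That of Esrrb was lost when PBS replicate 3 or 12 or ETX replicate 6 or 7 was left out (reaching 0.0749).

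**Figure D3:**
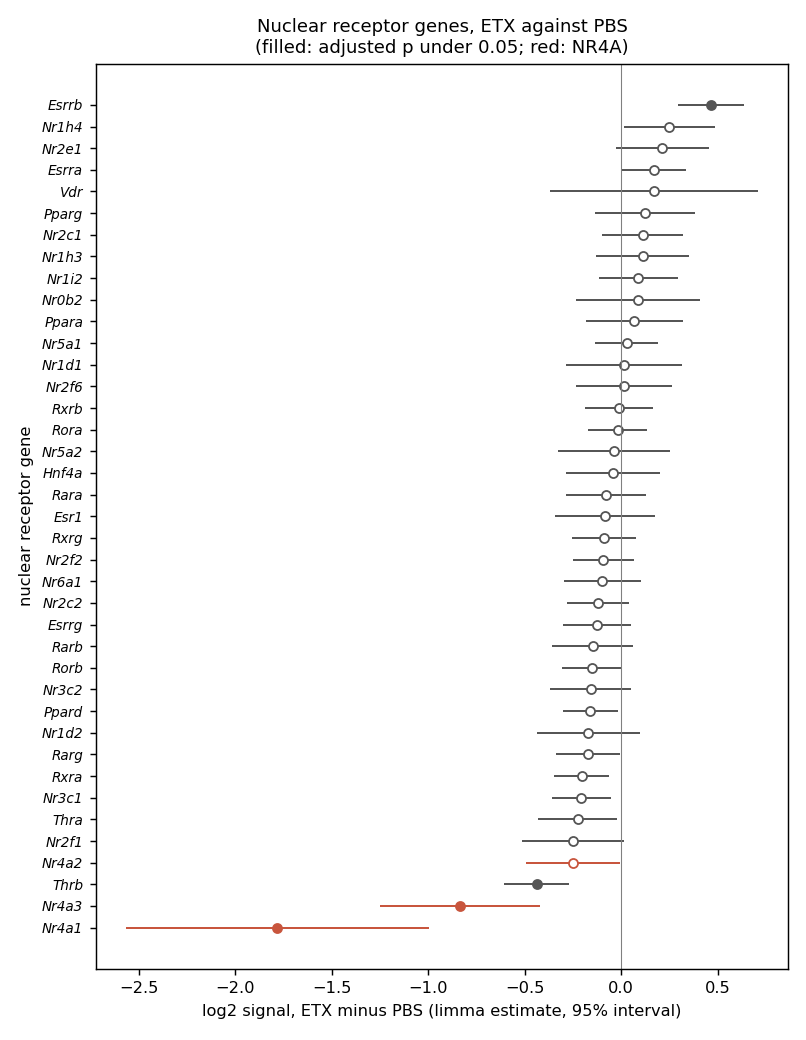
Log2 difference, ETX minus PBS, of the 39 tested nuclear receptor genes, each with the 95% interval of the limma fit. NR4A genes are red, and filled points passed an adjusted p of 0.05. Nr4a1 (-1.78) and Nr4a3 (-0.84) lie at the low end, and the other filled points are Thrb (-0.44) and Esrrb (0.46).

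Partners of NR4A showed small differences, mostly below 0. Rxra, the retinoid X receptor that pairs with Nr4a1 and Nr4a2, was at 7.07, 7.04 and 7.03 in PBS replicates 3, 9 and 12 and at 6.86, 6.85 and 6.81 in ETX replicates 6, 7 and 10. These values did not overlap, and the difference of -0.20 did not pass (limma adjusted p = 0.104). Rxrg differed by -0.09 (0.504) and Rxrb by -0.01 (0.954). The coactivator Ncoa3 differed by -0.41 (7.48 ± 0.09 against 7.07 ± 0.15, limma adjusted p = 0.0517), the corepressor subunit Rcor1 differed by -0.17 (0.171) and the coactivator Ncoa1 by -0.17 (0.19). Of the 11 tested partners 0 were called by limma (4 lower and 0 higher at an unadjusted p under 0.05, median -0.10). At that threshold 1954 of all 14953 genes tested were lower and 1325 higher. Below 0 lay 10 of the 11 partners, and 5 lay lower without overlap, against 51.6% and 16.1% of all genes tested.

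Among the proteins that carry signals to the NR4A genes, the histone acetyltransferase Crebbp, which CREB recruits, fell from 8.64 ± 0.02 to 8.20 ± 0.05 (-0.44, limma adjusted p = 0.0144). Of the 27 tested genes of this list it was the 1 that fell, 0 rose and 26 did not pass. That is 3.7% called, against 3.56% of all genes tested, with a median of -0.094. Below 0 lay 21 of the 27, and 10 lay lower without overlap, against 51.6% and 16.1% of all genes tested. Creb1 itself was at 7.46, 7.32 and 7.48 in PBS replicates 3, 9 and 12 and at 6.82, 7.15 and 7.22 in ETX replicates 6, 7 and 10 (-0.35, limma adjusted p = 0.115, and -0.23 without ETX replicate 6). Its lowest heart was ETX replicate 6, which also held the least Nr4a1. Among the PBS hearts Creb1 was lowest in replicate 9 (7.32), whereas Nr4a1 was lowest in replicate 3 (8.22). A link between the 2 genes was not tested. The related acetyltransferase Ep300 differed by -0.31 (0.0875), the MEF2 repressor Hdac9 by -0.52 (0.0578) and Mef2a by -0.21 (0.113). Crebbp lost its call without PBS replicate 3 (limma adjusted p = 0.0576) or ETX replicate 7 (0.0713).

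The other immediate early genes lay mostly lower in ETX, and few were called. Of 39 tested, 2 fell, 0 rose and 37 did not pass (5.13% called, against 3.56% of all genes tested). At an unadjusted limma p under 0.05, 12 of the 39 were lower and 2 higher, against 1954 and 1325 of all 14953 genes tested. The median log2 difference of the 39 was -0.15, with 28 of 39 below 0 against 51.6% of all genes tested. Without overlap 10 lay lower and 2 higher in ETX, against 16.1% of all genes tested that lay lower so. The 2 that fell were Csrnp1, a cysteine- and serine-rich nuclear protein (5.33 ± 0.01 to 4.91 ± 0.12, -0.42, limma adjusted p = 0.0318), and Jun, a subunit of AP-1 (8.09 ± 0.18 to 7.62 ± 0.11, -0.47, 0.0496). Csrnp1 lost its call without any 1 of the 6 hearts (limma adjusted p from 0.052 to 0.103). Jun lost it without PBS replicate 3 or 9 or without any 1 ETX heart (up to 0.162). With the score of the lung markers as a covariate the difference of Jun was -0.29, and it was -0.27 without the 2 PBS hearts high in those markers, neither of which passed (limma adjusted p = 0.204 and 0.292).

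Next by p among the immediate early genes were Fosl2 (-0.47, limma adjusted p = 0.0634), Zfp36 (-0.60, 0.0729), Klf6 (-0.49, 0.074) and Btg2 (-0.75, 0.0747). Each lay lower in every ETX heart than in any PBS heart, with ETX replicate 10 the highest ETX heart. Cish was higher in every ETX heart than in any PBS heart (0.37, limma adjusted p = 0.0995). Atf3, a stress-induced repressor, was at 6.46, 7.37 and 6.08 in PBS replicates 3, 9 and 12 and at 5.72, 5.51 and 5.68 in ETX replicates 6, 7 and 10 (-1.0, limma adjusted p = 0.0915). The difference was -0.63 without PBS replicate 9, and it was -0.38 with the lung score described at the end as a covariate and -0.45 without the 2 PBS hearts high in lung markers. Its PBS hearts were ordered differently from those of Nr4a1, with replicate 12 the lowest. Fos, the partner of Jun, was at 5.31, 5.11 and 4.92 in PBS replicates 3, 9 and 12 and at 4.63, 4.49 and 5.47 in ETX replicates 6, 7 and 10. Its groups overlapped, since ETX replicate 10 was above every PBS heart (-0.25, limma adjusted p = 0.589, and -0.55 to -0.06 without 1 heart). Dusp1, a phosphatase of MAP kinases, was at 9.84, 9.86 and 10.72 in ETX replicates 6, 7 and 10 against 10.57 to 10.75 in PBS (-0.49, limma adjusted p = 0.23), and passed without ETX replicate 10 (-0.78, 0.0224). Egr1, a zinc finger factor induced with NR4A in many cells, was likewise highest in ETX replicate 10 (7.78, against 6.68 to 7.17 in the other hearts, 0.20, limma adjusted p = 0.722). Its difference was -0.15 without that heart. Fosb differed by 0.09 (0.538) and Junb by 0.18 (0.189), with Junb higher in every ETX heart. ETX replicate 10 was thus the ETX heart with the most Nr4a1, Nr4a3, Jun, Fos, Dusp1 and Egr1. It was not the highest ETX heart for Atf3, Csrnp1, Fosb or Junb, and it was the lowest for Nr4a2.

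**Figure D4:**
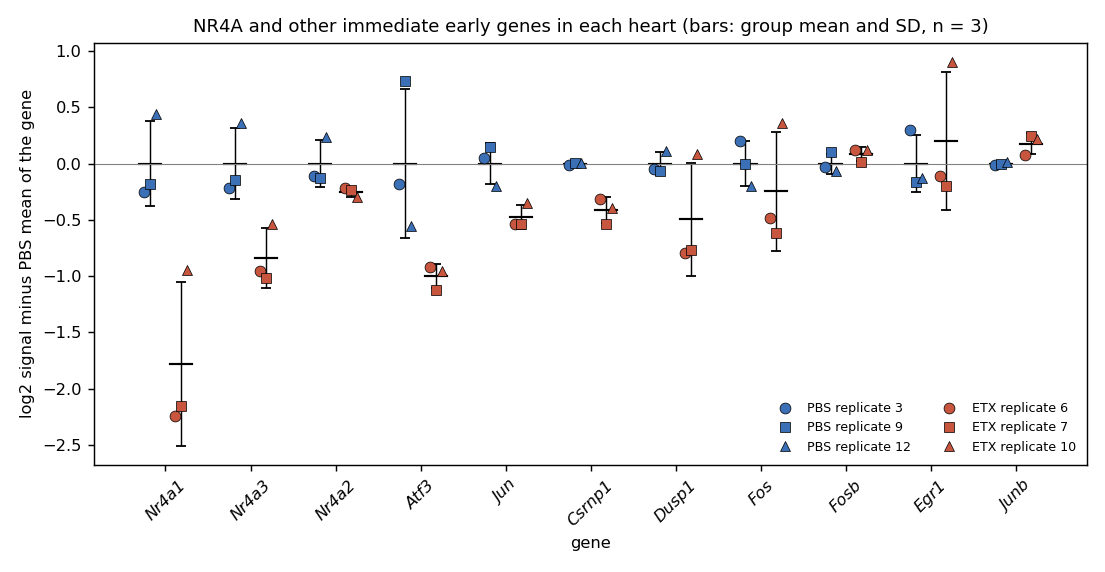
Log2 signal of the NR4A genes and 8 other immediate early genes in each heart, minus the PBS mean of the gene. Points are hearts, and bars give the group mean and SD (n = 3). Nr4a1 spans the widest range (2.25 below its PBS mean in ETX replicate 6), whereas Fosb, Egr1 and Junb have ETX means above the PBS mean.

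The called targets of cyclic AMP and CREB went in both directions. Of 20 tested, 2 fell, 1 rose and 17 did not pass (15% called, against 3.56% of all genes tested). The median was -0.16, and 15 of the 20 were below 0, against 51.6% of all genes tested. Rgs2, which dampens signalling of G protein-coupled receptors, fell by 0.90 (7.63 ± 0.10 against 6.73 ± 0.14, limma adjusted p = 0.006). The insulin receptor substrate Irs2 fell by 1.23 (6.58 ± 0.25 against 5.35 ± 0.24, limma adjusted p = 0.00977). Dio2, which activates thyroid hormone, rose from 4.93 ± 0.20 to 5.82 ± 0.02 (0.89, limma adjusted p = 0.00766). These 3 genes passed in all 6 fits that leave out 1 heart. With the score of the lung markers described at the end as a covariate Rgs2 passed, and Irs2 (0.0652) and Dio2 (0.0523) did not, by limma adjusted p. ETX replicate 10 did not stand apart for Rgs2 (6.89, 6.67 and 6.64 in ETX replicates 6, 7 and 10). The next members by p were Atf3 and the small GTPase Gem (-0.31, limma adjusted p = 0.109). The glucocorticoid response list shares inducible genes with these lists. Of its 15 members 4 fell and 0 rose (26.7% called, against 3.56% of all genes tested, median -0.43). They were the NF-kappa-B inhibitor Nfkbia (-0.81, limma adjusted p = 0.0251), Errfi1, a feedback inhibitor of the EGF receptor (-0.60, 0.0277), Tsc22d3, the glucocorticoid-induced leucine zipper (-0.57, 0.0423), and the transcription factor Cebpd (-0.57, 0.0496). Fkbp5, a co-chaperone of the glucocorticoid receptor in the same list, went the other way without passing: it was 0.48 higher (5.80 ± 0.19 against 6.28 ± 0.15, limma adjusted p = 0.0618) and higher in every ETX heart than in any PBS heart. Each of these 4 lost its call in at least 4 of the 6 fits that leave out 1 heart (limma adjusted p up to 0.147). Nfkbia kept it without PBS replicate 12 or ETX replicate 10, Errfi1 without PBS replicate 9 or ETX replicate 10, Tsc22d3 without PBS replicate 3 and Cebpd without ETX replicate 10.

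Genes reported downstream of NR4A receptors in skeletal muscle, which serve glucose and lipid use, were not lower as a list. Of 16 tested, 2 rose, 1 fell and 13 did not pass (18.8% called, against 3.56% of all genes tested). The median log2 difference was 0.14, with 6 of 16 below 0, against 51.6% of all genes tested. Phka1, a subunit of the kinase that activates glycogen phosphorylase, rose from 6.19 ± 0.05 to 6.69 ± 0.11 (0.51, limma adjusted p = 0.0184). The glycogen synthase Gys1 rose from 7.68 ± 0.08 to 8.07 ± 0.05 (0.39, limma adjusted p = 0.0318). Fbp2, the muscle fructose bisphosphatase, fell from 8.01 ± 0.09 to 7.43 ± 0.18 (-0.57, limma adjusted p = 0.0292). The glycolytic enzyme Pgam2 was 0.33 higher without passing (0.0512). The call of Phka1 was lost by leaving out PBS replicate 3 or ETX replicate 6 or 10 (limma adjusted p reaching 0.0622). Gys1 kept its call only without PBS replicate 12 (otherwise up to 0.0926), and Fbp2 only without ETX replicate 10 (up to 0.0926).

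Nr4a2 is known for the dopamine neuron programme, and the 6 genes of that programme were all tested. The receptor kinase Ret fell from 6.79 ± 0.27 to 6.04 ± 0.15 (-0.76, limma adjusted p = 0.0318), 0 rose and 5 did not pass (16.7% called, against 3.56% of all genes tested). Ret kept its call only without PBS replicate 3 (otherwise up to 0.116). Aldh1a1, a retinaldehyde dehydrogenase, differed by -0.42 (0.0998) and the decarboxylase Ddc by 0.38 (0.112), in opposite directions, and the dopamine transporter Slc6a3 by 0.17 (0.233). Nr4a1 is required for Ly6C-low patrolling monocytes, and 11 genes of a list for those cells were tested. Itga4, an integrin chain, fell from 5.34 ± 0.13 to 4.74 ± 0.15 (-0.60, limma adjusted p = 0.0256). Of the others 0 rose and 10 did not pass (9.09% called, against 3.56% of all genes tested, median -0.22). Eno3 and Cd36 of this list are also in the muscle list above and were bright (PBS means 11.51 and 11.70). In whole-heart RNA the list therefore does not read these monocytes alone. The adhesion molecule Ceacam1 differed by -0.47 (0.0655), the glycolytic enzyme Eno3 by 0.16 (0.205) and the fatty acid transporter Cd36 by -0.22 (0.214). The chemokine receptor Cx3cr1, also of this list, was at 5.87 to 6.13 in PBS and 5.67 to 5.94 in ETX, with overlap. The call of Itga4 was lost when PBS replicate 3 or 9 or ETX replicate 7 or 10 was left out (limma adjusted p reaching 0.0939).

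The genes whose values ran closest to each NR4A gene were found by the root mean square difference over the 6 hearts, after each gene's own mean was subtracted. For Nr4a1 they were H2-Ab1, an MHC class II chain (0.44 on the log2 scale), Mme, a membrane peptidase (0.49), the water channel Aqp1 (0.50) and the macrophage lectin Mgl2 (0.52). Nr4a3 came seventh (0.55). None of the 4 nearest followed the full swing of Nr4a1, which ran from 1.33 above its mean in PBS replicate 12 to 1.35 below it in ETX replicate 6. For Nr4a3 the nearest were Tcim, a small regulator of transcription (0.11), the kinase Stk17b (0.11), the potassium channel Kcna5 (0.11) and the adipokine C1qtnf9 (0.11), all with their highest value in PBS replicate 12. For Nr4a2 they were Lrrc58 (0.022), the transcription termination factor Pcf11 (0.041), Fchsd2 (0.041) and the ephrin ligand Efna5 (0.042), each of which stood high in PBS replicate 12 and did not pass (limma adjusted p from 0.184 to 0.4). These are descriptions over 6 hearts that include the group difference.

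**Figure D5:**
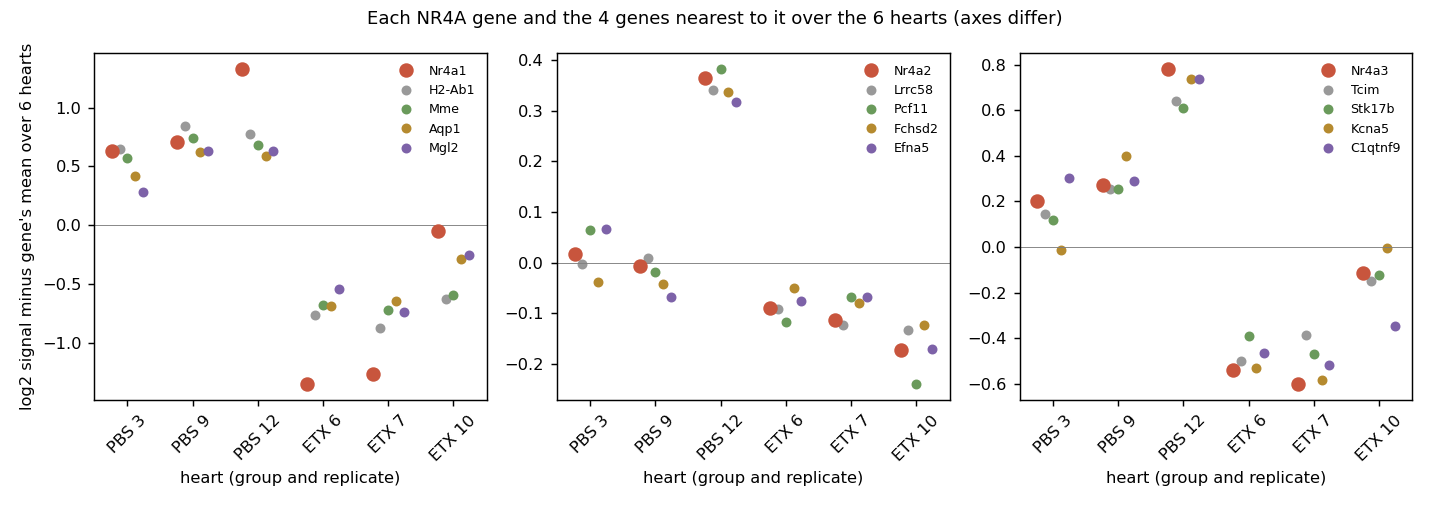
Log2 signal of each NR4A gene and of the 4 tested genes nearest to it in each heart, minus the gene's mean over the 6 hearts; the vertical axes differ between panels. PBS replicate 12 is the highest heart for Nr4a1 (1.33), Nr4a2 (0.36) and Nr4a3 (0.78). ETX replicate 10 is nearest to the mean among the ETX hearts for Nr4a1 and Nr4a3 and the lowest heart for Nr4a2.

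Other features of the hearts differed beside the NR4A genes. Lung markers were high in PBS replicates 3 and 9, with a mean over 10 genes of 5.89 and 7.46 against 3.51 in PBS replicate 12 and 3.62 to 3.66 in ETX (9 of 9 tested below 0, 0 called by limma, 3 lower at an unadjusted p under 0.05). PBS replicate 12, at the level of the ETX hearts for these markers, held the most Nr4a1, Nr4a2 and Nr4a3. Once the score of these markers was a covariate, the differences were -2.11, -0.45 and -1.11, none of which passed (limma adjusted p = 0.0848, 0.0921 and 0.0599). Atrial markers were high in PBS replicate 3 and ETX replicates 6 and 7 (mean over 6 genes 8.26, 7.52 and 7.65, against 5.58 to 6.13 in the others). With the atrial score as a covariate the differences of Nr4a1 and Nr4a3 were -1.60 and -0.74, neither of which passed (limma adjusted p = 0.058 and 0.0699). Without those 3 hearts, so with replicate 10 alone for ETX, they were -1.07 and -0.64 (0.552 and 0.598). Macrophage markers had a mean over 11 genes of 6.79 to 7.01 in PBS and 6.48 to 6.59 in ETX. Of these 5 of 11 fell (45.5% called, against 3.56% of all genes tested) and all 11 were below 0 (against 51.6%). Endothelial markers had a mean over 10 genes of 8.78 to 8.80 in PBS and 8.46 to 8.62 in ETX (3 of 10 fell, 30% called, all 10 below 0). Both cell types are known to express NR4A genes, and the part of their markers in the NR4A differences was not tested. Xist was at 8.34 to 8.41 in PBS replicate 3 and ETX replicates 6 and 10 and at 2.61 to 2.87 in the others. With the sex so read in the fit Nr4a1 differed by -1.81 (limma adjusted p = 0.0861) and Nr4a3 by -0.83 (0.111). Of the 17 other named genes called in the lists above, 1 kept its call with the lung score as a covariate, 6 with the atrial score and 4 with sex, and 0 changed sign in these fits.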

How the data were processed

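Log2 signals of 6 mouse heart arrays (3 ETX, 3 PBS) were used as deposited; per the submitters' processing notes the authors made them with Affymetrix Expression Console and RMA, which corrects background, normalizes quantiles and compresses differences of dim transcripts. The version is not given in the sources used here. No detection call was used, and the number of arrays limits the precision. Of 35556 clusters 21789 had 1 gene symbol, in 19938 genes; the brightest cluster was used, and genes under the lower quartile of gene means (3.45) were left out, which kept 14953. Groups were compared with limma 3.58.1 (lmFit, eBayes, two-sided) in R 4.3.3, Benjamini-Hochberg adjusted, threshold 0.05; figures used matplotlib 3.10.9. On simulated data for this comparison 91.5% of 200 genes changed 1.5-fold and 99.5% of 200 changed 2-fold were recovered. The simulated noise was normal and independent, with the moderated variances of limma and without lung, atrial or sex differences between hearts. These shares therefore do not give the share recovered in the real hearts. The labels call the hearts biological replicates. Members and lists were chosen with earlier results of these data known. Named genes are the NR4A genes, called members and the 4 smallest p of each list, a fixed set, and the 4 nearest genes per member. Cx3cr1, Fkbp5, Klf6, Btg2 and Cish were added after their values were seen. Ppard and Gem also lie outside this rule. Other marker lists held 0 called of 5 (mural), 1 lower of 5 (fibroblast), 0 of 3 (neutrophil and monocyte), 1 lower of 3 (T cell), 1 higher of 4 (brown fat), 0 of 4 (sympathetic), 0 of 6 (atrial) and 0 of 8 (cardiomyocyte), against 3.56% of all genes tested. Alternatives were other filters, eBayes options, array weights, normalizations, cluster rules, an unmoderated model, covariates and hearts left out.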

Additional observations from a re-analysis of the deposited data

How the results depend on the processing

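Nr4a1, Nr4a2 and Nr4a3 kept their direction in every alternative run. The call of Nr4a1 (-1.78) was lost with robust eBayes, all transcript clusters as features and an unmoderated linear model (adjusted p = 0.108, 0.114 and 0.193, difference -1.78), with lung (-2.11) or atrial (-1.60) scores or sex (-1.81) in the fit, and without the PBS hearts with lung transcripts (-2.22) or the 3 hearts with high atrial transcripts (-1.07). Nr4a3 (-0.84) lost it with no filter, all clusters and the unmoderated model (-0.84), and in the same 5 fits in turn (-1.11, -0.74, -0.83, -1.20 and -0.64); it was not tested with the filter at the median. Leaving out 1 heart gave -2.20 to -1.55 and -0.99 to -0.65. The called genes, 533, were 909 with the filter at the median, 870 with an eBayes trend, 294 over all clusters (188 higher), 0 unmoderated (2738 at an unadjusted p under 0.05), 80, 141 and 120 with lung, atrial and sex terms, 19 and 2 without the hearts named, and 94 to 241 without 1 heart. With arrays centred on their median 125 were higher and 459 lower, with quantile normalization 223 and 312, against 170 and 363. The immediate early median (-0.15) was -0.059 with the lung score and -0.039 without the 3 atrial hearts. Uncalled signs turned without the atrial hearts for Dusp1 (0.059) and Fos (0.46), without ETX replicate 10 for Egr1 (-0.15, other single hearts up to 0.40), and for Rxrb (0.0033 with quantile normalization, 0.034 with the lung score, 0.04 without the lung hearts, -0.066 to 0.034 without 1 heart). Where a fit had fewer hearts or a covariate it also had fewer degrees of freedom; other causes were not tested. A lone heart was assumed to vary like the other group. No paired analysis was possible because the groups share no replicate number.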
